A study of Homo sapiens with 40 samples.

Results

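The effect of NPAT knockdown on gene expression was measured in U2OS cells, a human osteosarcoma line, on day 3 after transfection of small interfering RNA (siRNA). The comparison comprised 4 of the 40 microarrays of the series, chosen by their titles: 2 arrays of cells given NPAT siRNA and 2 arrays of cells given control siRNA. Cells were plated together with 15 nM siRNA. The NPAT siRNA was a set of 4 siRNAs against the transcript, and the control was a negative control siRNA that targets none of the genes studied. The same set of day 3 arrays held 2 arrays each of U2OS cells given CASP8AP2 or HINFP siRNA, and 2 arrays each of hTERT-RPE1 cells (retinal pigment epithelial cells immortalized with telomerase, called RPE1 here) given the same siRNAs. The 2 arrays of a group came from simultaneous transfections, and p-values here therefore measure only the spread between simultaneous cultures and not that between separate experiments. Each array read the RNA of a whole culture, so a change within every cell and a change in the share of cells in one state cannot be told apart.

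NPAT is a nuclear co-activator of the replication-dependent histone genes, which are transcribed when cells enter S-phase. It is a substrate of the cyclin E-dependent kinase and marks the histone locus body, a nuclear structure at the histone gene clusters that also holds CASP8AP2 (FLASH), a protein of histone mRNA processing. HINFP is a zinc finger factor that binds histone gene promoters and works through NPAT. The comparison therefore asks what happens to transcripts across the genome when a central activator of histone transcription is depleted in a tumor line.

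Expression was given as 1 value per Ensembl gene and array for 22069 genes on the log2 scale, so a difference of 1 is a doubling. The duplicates correlated at 0.9972 (control) and 0.9969 (NPAT siRNA) across genes, and no arrays were identical. The array means lay between 5.87 and 5.88, and single values between 2.35 and 13.22. A gene symbol could be assigned to 1898 genes (8.6%), and genes are named by symbol below only where it was. Of 14 osteoblast lineage markers, 4 had a symbol. RUNX2, the transcription factor of that lineage, averaged 7.87 on the control arrays, while the matrix genes IBSP (3.47) and COL1A2 lay near the low end of the scale, COL1A2 at 3.98 and 4.02 on the control arrays. MSX2, the other osteoblast marker with a symbol, read 6.2 and 6.3 on the control arrays. The 2 retinal pigment epithelium markers with a symbol, RLBP1 and BEST1, lay at 3.55 and 3.99. On the RPE1 control arrays RUNX2 averaged 9.67, RLBP1 3.78 and BEST1 3.99. RUNX2 was thus higher in RPE1 than in U2OS cells, and these values do not tell the 2 lines apart by lineage. The 7 leukocyte markers with a symbol lay between 3.24 and 8.14. The highest was NCAM1, which is not restricted to leukocytes and read 8.07 and 8.21. None of these 13 genes was called as changed, where 8.13% of all genes were, so few calls are to be expected among them. No epithelial marker had a symbol.

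The target transcript fell. NPAT read 8.65 and 8.59 on the control arrays and 6.92 and 7.15 on the NPAT siRNA arrays, a difference of -1.59 on the log2 scale (SE 0.11, 95% confidence interval -1.82 to -1.35), which leaves 33.3% of the control level. The adjusted p was 4.78e-06 by limma, in which the spread was shared over the 16 day 3 arrays and p-values were adjusted over all genes by the Benjamini-Hochberg method. The 2 partner genes did not pass the threshold of 0.05. CASP8AP2 averaged 6.81 in both groups (difference 0.00, 95% confidence interval -0.23 to 0.23), and HINFP read 7.10 and 6.86 against 6.73 and 6.67 (difference -0.28, SE 0.15, adjusted p = 0.303). Across the other siRNAs, NPAT stayed near its control level, with differences of -0.09 under CASP8AP2 siRNA (adjusted p = 0.626) and -0.11 under HINFP siRNA (adjusted p = 0.637). The fall of NPAT in U2OS cells and in RPE1 cells (-1.31, SE 0.11) did not differ beyond the spread (difference -0.27, SE 0.15, adjusted p = 0.354).

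Across the 22069 genes, 1794 passed the adjusted p of 0.05 (8.13%), and these are referred to as called. They comprised 847 higher (3.84%) and 947 lower (4.29%) with NPAT siRNA. The 2 arrays of each group did not overlap for 53.8% of all genes, and this held for 100% of the called genes, so a lack of overlap alone singles out little. The called rises had a median of 0.54 and the called falls a median of -0.48, against -0.002 over all genes. Large changes were mostly rises, as 85 genes rose and 33 fell by at least 1 on the log2 scale. The balance of rises and falls moved with the scaling of the arrays. It was 847 to 947 as deposited, 938 to 700 after cyclic loess normalization and 677 to 1375 after each array was centred on its median, which shifted the median of all genes to -0.05. The number of calls also moved with single arrays, to 554 without NPAT replicate 2, 927 without NPAT replicate 1, 510 without control replicate 1 and 814 without control replicate 2.

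The called genes differed in their array signal, which depends on the transcript level and on the probes of each gene. Genes called higher had a median control value of 6.1 and genes called lower one of 8.15, against 5.32 over all genes. When the genes were split by their mean value into 4 groups of equal size, 8.85% of the highest group were called lower and 3.92% higher. In the second lowest group the order was reversed, with 1.69% lower and 4.08% higher. The lowest group, with means of at most 3.72, held 0.652% called higher and 0.163% called lower. Of the 85 rises of at least 1 on the log2 scale, 30 lay in the second lowest group, 42 in the next and 12 in the highest. Of the 33 falls of that size, 14, 12 and 7 lay in these groups, so the many falls of genes with a high signal were mostly smaller than 1.

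**Figure D1:**
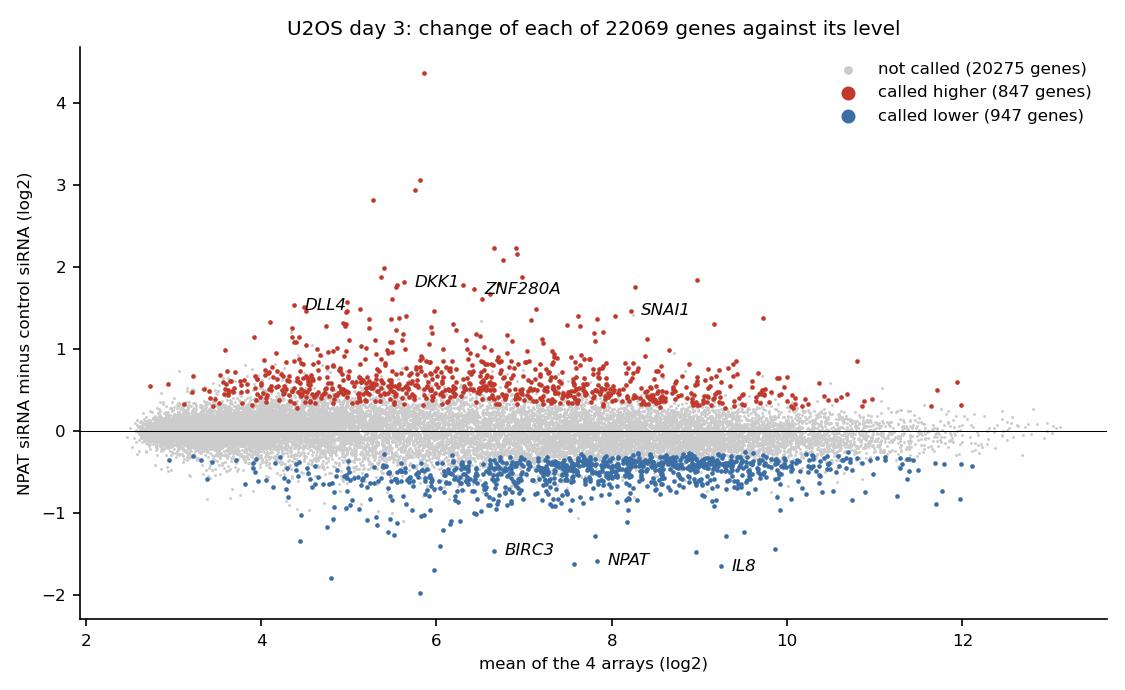
Difference between NPAT siRNA and control siRNA in U2OS cells on day 3 (y axis, log2) against the mean of the 4 arrays (x axis, log2), 1 point per gene. Genes called higher (847) spread upward at low to intermediate levels, up to 4.36, while genes called lower (947) sit closer to 0 at higher levels and reach -1.98.

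Of the 118 genes that changed by at least 1 on the log2 scale, 14 had a symbol and 104 did not. The largest change without one was ENSG00000144158, which read 3.57 and 3.79 on the control arrays and 8.05 and 8.03 on the NPAT siRNA arrays (difference 4.36, SE 0.13, adjusted p = 1.78e-09). In RPE1 cells this gene read 3.90 and 4.16 under control siRNA and 3.91 and 4.27 under NPAT siRNA. In U2OS cells it read 9.12 and 9.19 with CASP8AP2 siRNA and 7.54 and 7.56 with HINFP siRNA, set against the same control arrays. The next was ENSG00000252421, at 4.42 and 4.15 against 7.32 and 7.35 (difference 3.06, SE 0.17). It was higher still with CASP8AP2 siRNA, at 10.45 and 10.06 (NPAT minus CASP8AP2 siRNA -2.92, SE 0.17, adjusted p = 9.42e-07), and with HINFP siRNA, at 9.39 and 9.18 (NPAT minus HINFP siRNA -1.94, SE 0.17, adjusted p = 3.39e-05). The largest falls without a symbol were ENSG00000100739 (6.77 and 6.84 against 4.59 and 5.05, difference -1.98) and ENSG00000134061 (5.61 and 5.79 against 3.80 and 4.00, difference -1.80). Both rises exceeded the largest rise of a gene with a symbol and both falls the largest such fall, and what the genes encode was not assigned here.

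Among the 1898 genes with a symbol, 115 were called higher (6.06%) and 106 lower (5.58%). The largest rise was of DKK1, a secreted inhibitor of Wnt signalling, from 4.73 and 4.72 to 6.48 and 6.60, a 3.51-fold increase (difference 1.81, SE 0.10, adjusted p = 8.56e-07). NKD1, an intracellular antagonist of the same pathway, went from 4.97 and 5.08 to 5.98 and 6.43 (difference 1.18, SE 0.17, adjusted p = 0.00112). Both antagonists thus rose, and for each the control and NPAT siRNA arrays lay well apart. The other 4 Wnt regulators with a symbol were not called. They were the antagonist SFRP1 (0.06), the co-receptor LRP5 (0.22), the ligand WNT5A (0.22) and the effector beta-catenin, CTNNB1 (-0.04). Of the 28 Wnt regulators listed only 6 had a symbol, of which 2 were higher and 0 lower, with a median difference of 0.22.

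Notch signalling passes between neighbouring cells, from ligands such as DLL4 and JAG1 to Notch receptors, and switches on transcriptional repressors such as HEY1. DLL4 was at the low end of the scale in control cells, at 3.58 and 3.63, and read 5.13 and 5.14 with NPAT siRNA (2.89-fold, difference 1.53, SE 0.19, adjusted p = 4.44e-04). HEY1 went from 5.59 and 5.49 to 6.79 and 6.89 (2.46-fold, difference 1.30, SE 0.14, adjusted p = 1.85e-04). JAG1 went from 7.55 and 7.48 to 8.08 and 8.25 (difference 0.65, SE 0.12, adjusted p = 0.00629). Both ligands and the target gene rose, while the receptor NOTCH2 read 9.93 and 9.98 against 10.13 and 10.25 and was not called (difference 0.23, adjusted p = 0.207). Of the 19 Notch genes listed only 4 had a symbol, and 3 of these 4 were higher, with a median difference of 0.97. Among all genes with a symbol, 6.06% were called higher. Without NPAT replicate 2 the rise of JAG1 was 0.57 and no longer called (adjusted p = 0.0716), leaving 2 of 4.

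**Figure D2:**
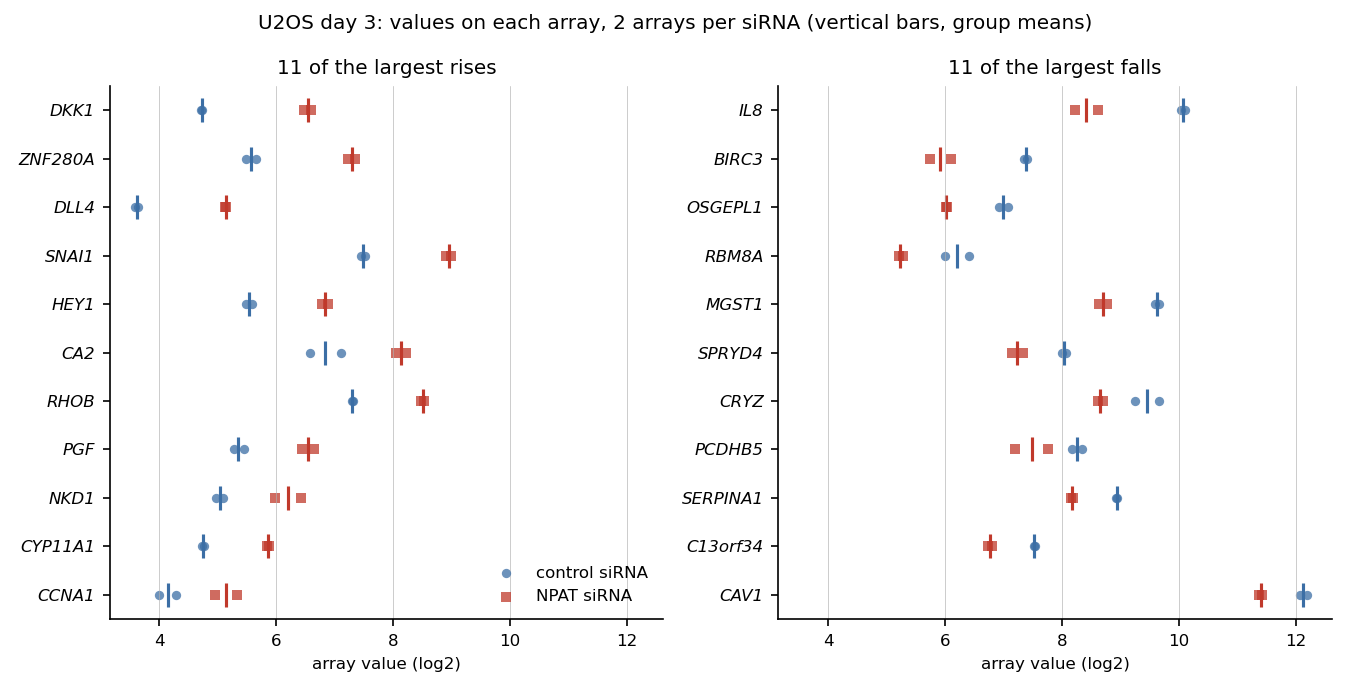
Values (x axis, log2) of 11 of the 12 largest called rises (left) and 11 of the 12 largest called falls (right) among genes with a symbol, on each of the 2 control (circles) and 2 NPAT siRNA (squares) arrays of U2OS cells on day 3; vertical bars are group means. The control and NPAT siRNA points do not overlap for any of the 22 genes, by the choice of the genes, and duplicates are widest apart for PCDHB5, CA2 and NKD1.

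SNAI1, a repressor of E-cadherin that acts in the epithelial-mesenchymal transition, rose from 7.45 and 7.52 to 8.99 and 8.91 (2.76-fold, difference 1.47, SE 0.13, adjusted p = 3.11e-05). ZNF280A, which encodes a zinc finger protein, rose from 5.65 and 5.48 to 7.23 and 7.34 (3.3-fold, difference 1.72, SE 0.16). RHOB, a small GTPase of actin and endosome regulation, rose from 7.32 and 7.29 to 8.48 and 8.53 (2.31-fold, difference 1.21, SE 0.11). In each of these the duplicates lay within 0.17 of each other, and the groups were more than 1 apart.

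Other genes among the 12 largest rises have unrelated functions. PGF, a growth factor of the VEGF family, rose by 1.19 (SE 0.12) and CA2, a carbonic anhydrase, by 1.29 (SE 0.20), from 6.57 and 7.11 to 8.22 and 8.04. CYP11A1, which carries out the initial step of steroid hormone synthesis, read 4.76 and 4.73 against 5.84 and 5.87 (difference 1.11, SE 0.10, adjusted p = 5.22e-05). The smallest of the 12 was CCNA1, a cyclin best known from the germline, which read 4.28 and 4.00 against 5.33 and 4.95 (difference 1.00, SE 0.19, adjusted p = 0.0069). CCNA1 was the only one of the 12 whose call depended on 1 array, with 0.81 without NPAT replicate 1 (adjusted p = 0.0642) and 0.85 without control replicate 2 (adjusted p = 0.063). The other 11 were called whichever of the 4 arrays was left out.

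IL8 (CXCL8), a chemokine that recruits neutrophils, showed the largest fall among genes with a symbol, beyond that of NPAT itself. It read 10.10 and 10.04 on the control arrays and 8.61 and 8.22 on the NPAT siRNA arrays, which leaves 31.8% of the control level (difference -1.65, SE 0.18, adjusted p = 1.5e-04). BIRC3, an inhibitor of apoptosis that acts as a ubiquitin ligase in TNF receptor signalling, read 7.41 and 7.36 against 5.74 and 6.10, leaving 36.3% (difference -1.46, SE 0.16, adjusted p = 1.48e-04). Both are textbook targets of the transcription factor NF-kB, and in both the groups lay more than 1 apart. These 2 were the called members among 8 of the list of NF-kB and cytokine genes with a symbol. The other 6 were not called. Of all genes with a symbol, 5.58% were called lower. IL1A, a cytokine, read 7.79 and 7.30 against 6.96 and 6.93 (difference -0.60, adjusted p = 0.0742). Without control replicate 2 the list had 3 members lower, and without each of the other arrays 2. The NF-kB subunit NFKB1 (0.03), its feedback inhibitor TNFAIP3 (-0.02), TNFAIP2 (-0.04), the chemokine CCL5 (-0.04) and the prostaglandin synthase PTGS2 (0.17) lay near 0, and the list's median was -0.04.

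The 250 bases upstream of the start of IL8 and BIRC3, the largest falls, and of DKK1, the largest rise, are shown 5′ to 3′ on the strand of the gene (RefSeq, GRCh38.p14), so that the promoters behind these values can be read. Capitals mark every match, on either strand, to 6 short motifs. They are the NF-kB site GGAATTTCC, its looser form GGNNTTTCC, which includes the stricter one, the AP-1 site TGACTCA, the TCF site CTTTGAT, the site GTGGGAA of CSL, the DNA-binding effector of Notch, and the TATA box TATAAA. The motifs were chosen after the values were seen.
IL8 (CXCL8), chr4:73740319-73740568, plus strand: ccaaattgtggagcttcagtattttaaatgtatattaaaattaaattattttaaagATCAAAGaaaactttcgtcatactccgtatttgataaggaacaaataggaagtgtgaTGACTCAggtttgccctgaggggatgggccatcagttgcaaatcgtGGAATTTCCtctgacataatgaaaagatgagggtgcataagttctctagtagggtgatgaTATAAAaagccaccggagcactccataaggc
BIRC3, chr11:102317234-102317483, plus strand: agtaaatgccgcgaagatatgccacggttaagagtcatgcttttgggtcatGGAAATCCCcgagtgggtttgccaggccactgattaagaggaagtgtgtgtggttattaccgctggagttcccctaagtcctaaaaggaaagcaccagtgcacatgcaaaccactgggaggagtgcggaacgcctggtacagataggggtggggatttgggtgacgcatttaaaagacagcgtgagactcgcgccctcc
DKK1, chr10:52314031-52314280, plus strand: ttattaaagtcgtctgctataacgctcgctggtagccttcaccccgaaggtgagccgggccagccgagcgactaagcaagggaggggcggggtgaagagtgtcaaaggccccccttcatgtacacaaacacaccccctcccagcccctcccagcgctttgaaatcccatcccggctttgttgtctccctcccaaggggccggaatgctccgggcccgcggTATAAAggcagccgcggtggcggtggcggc
In these windows the IL8 promoter held GGAATTTCC 91 bases before the start, TGACTCA 137 bases before it and TATAAA 31 bases before it, and CTTTGAT on the opposite strand 194 bases before it. The BIRC3 promoter held GGNNTTTCC on the opposite strand 199 bases before the start and no other motif of the 6. The DKK1 promoter held TATAAA 30 bases before the start and no other.

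Over the 27305 genes with a promoter window of this length, GGAATTTCC occurred in 0.428%, GGNNTTTCC in 5.48%, TGACTCA in 4.16%, CTTTGAT in 2.28%, GTGGGAA in 5.46% and TATAAA in 11.1%. Of the genes with a symbol called lower, 88 had a window, and of those called higher, 77 had one. GGNNTTTCC was in the windows of 11 of the 88 genes called lower (12.5%) and in 0 of the 77 called higher, and GGAATTTCC was in 2 and 0. The counts moved with the letters chosen, as the same form with 3 free central bases in place of 2 was in 9 of the 88 (10.2%) and 2 of the 77 (2.6%), against 5.35% of all windows. GTGGGAA was in 4 of the 88 and 2 of the 77, TGACTCA in 4 and 2, CTTTGAT in 2 and 2, and TATAAA in 5 and 3. These counts are small and are given as a description, without a test.

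The other large falls were of genes with varied functions. OSGEPL1, an enzyme of tRNA modification in mitochondria, read 7.08 and 6.92 against 6.03 and 6.02 (difference -0.98, SE 0.11, adjusted p = 1.99e-04). SPRYD4 read 8.07 and 8.00 against 7.33 and 7.14 (difference -0.80, SE 0.10). CAV1, the coat protein of caveolae, read 12.07 and 12.19 against 11.43 and 11.38, leaving 60.4% (difference -0.73, SE 0.13, adjusted p = 0.00402). SERPINA1, an inhibitor of neutrophil elastase, fell by 0.76 (SE 0.13), from 8.95 and 8.92 to 8.16 and 8.19. C13orf34 (BORA), a cofactor of Aurora A kinase at mitotic entry, fell by 0.76 (SE 0.12), from 7.54 and 7.52 to 6.73 and 6.81. All 5 were called whichever of the 4 arrays was left out, as were IL8 and BIRC3.

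The remaining 5 of the 12 largest falls were called on all 4 arrays but not without some single arrays. MGST1, a membrane-bound glutathione transferase, read 9.59 and 9.66 against 8.78 and 8.63 (difference -0.92) and was not called without NPAT replicate 2 (-0.84, adjusted p = 0.0544). RBM8A, a core protein of the exon junction complex, read 6.00 and 6.41 against 5.28 and 5.21 (difference -0.96) and was called only without control replicate 1, with adjusted p up to 0.146 without any of the others. CRYZ, a quinone oxidoreductase, read 9.66 and 9.25 against 8.62 and 8.70 (difference -0.79) and was called only without control replicate 2, with adjusted p up to 0.195 otherwise. PCDHB5, a protocadherin of the beta cluster, read 8.18 and 8.35 against 7.20 and 7.77 (difference -0.78, SE 0.22, adjusted p = 0.0479). It was called only without NPAT replicate 2, reached 0.326 without NPAT replicate 1 (-0.49), and was not called after cyclic loess normalization (adjusted p = 0.0561). The other protocadherin with a symbol, PCDHB1, was not called and lay at the low end of the scale.

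The canonical histone genes, the known targets of NPAT, were not analysed here, because none of the 70 listed could be tied to an identifier on the arrays. Of the 12 genes listed as replacement histones, 2 had a symbol. H1F0, a linker histone of slowly dividing cells, read 11.63 and 11.74 against 11.44 and 11.40 (difference -0.26, SE 0.16, adjusted p = 0.386). H2AFX, whose product is phosphorylated at DNA breaks, read 9.29 and 9.46 against 9.55 and 9.56 (difference 0.18, SE 0.10, adjusted p = 0.317). Neither was called. Of the 7 genes of the histone locus body and of histone mRNA processing with a symbol, NPAT alone was called. The cyclin E genes CCNE1 (0.27) and CCNE2 (0.27), E2F1 (0.03) and POU2F1 (0.01) were not. None of 4 histone chaperones was called, with differences from -0.17 (RBBP4, adjusted p = 0.39) to -0.02. Of all genes 8.13% were called, and of genes with a symbol 11.6%. Few calls are thus to be expected in lists this short, and NPAT was itself the siRNA target.

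Of the 42 genes with a symbol in 5 lists of the cell cycle, DNA replication and repair, 3 were called (7.14%), against 8.13% of all genes and 11.6% of genes with a symbol. Of 8 cyclin, CDK and E2F genes, 1 was higher (CCNA1) and 0 lower, with a median of 0.05. CCNA2, the cyclin of S-phase and mitosis, read 10.22 and 10.20 against 9.83 and 9.86 and was not called (difference -0.37, adjusted p = 0.0758). None of 6 replication licensing genes was called. The largest differences were of CDT1 (0.31, adjusted p = 0.189) and CDC6 (-0.18, adjusted p = 0.247), which load the replicative helicase. None of 10 genes of DNA synthesis and nucleotide supply was called, with RFC4, a subunit of the clamp loader, at -0.35 (adjusted p = 0.0762) and the flap endonuclease FEN1 at 0.33 (adjusted p = 0.311). RFC4 was called only after each array was centred on its median (-0.40, adjusted p = 0.0497). Of 5 mitotic genes, NUF2, a kinetochore protein, fell from 9.38 on both control arrays to 8.98 and 8.93 (difference -0.43, SE 0.11, adjusted p = 0.0338). Of 13 genes of the damage checkpoint and homologous repair, NBN, a subunit of the complex that senses double-strand breaks, fell from 9.16 and 9.10 to 8.67 and 8.73 (difference -0.43, SE 0.10, adjusted p = 0.0199). RAD17, a loader of the checkpoint clamp, read 7.93 and 7.91 against 7.39 and 7.35 and was not called (difference -0.55, adjusted p = 0.0548). The median of these 13 was 0.02. Neither NUF2 nor NBN was called once any 1 of the 4 arrays was left out, with adjusted p up to 0.176 and 0.141, and NUF2 was not called after cyclic loess normalization (adjusted p = 0.0705).

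**Figure D3:**
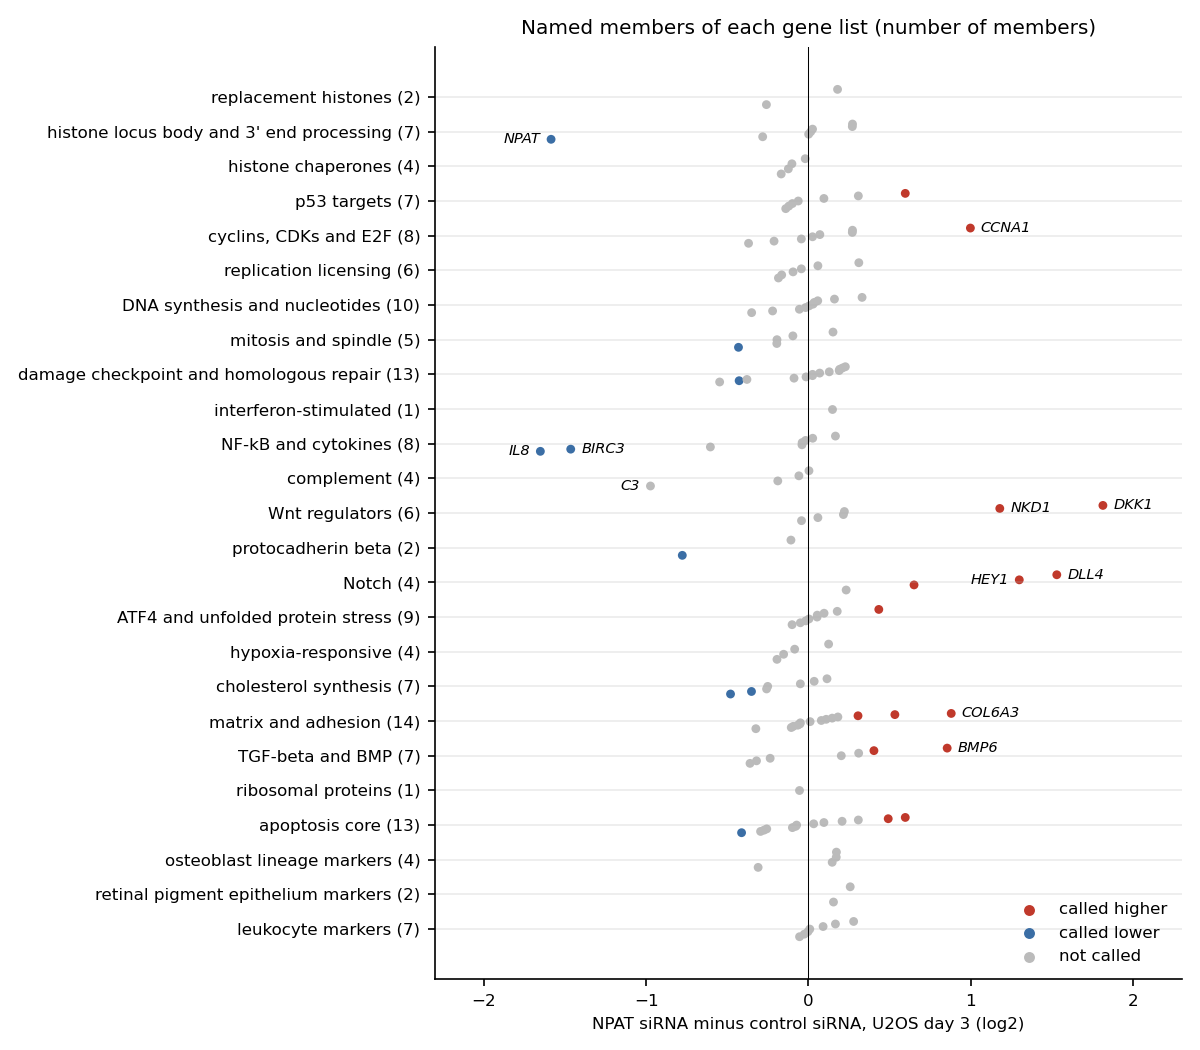
Difference between NPAT siRNA and control siRNA in U2OS cells on day 3 (x axis, log2) for every member with a symbol of each gene list (rows, number of members in parentheses), with called genes in red (higher) or blue (lower). The 4 Notch genes with a symbol lie to the right, and 3 of them were called higher. The 6 replication licensing and 10 DNA synthesis genes are all uncalled and lie between -0.35 and 0.33.

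Of 13 regulators of apoptosis, 2 were called higher, 1 lower and 10 not called, with a median of -0.07, against 3.84% of all genes higher and 4.29% lower. With 1 array left out, 0 or 1 were higher and 0 lower. APAF1, the core of the apoptosome, read 6.17 and 6.29 against 6.73 and 6.92 (difference 0.60, SE 0.12, adjusted p = 0.0114). BCL2L11 (BIM), a pro-apoptotic member of the BCL family, read 7.32 and 7.27 against 7.75 and 7.81 (difference 0.49, SE 0.14, adjusted p = 0.0425). BID, a pro-apoptotic protein cleaved by caspases, read 8.96 and 8.97 against 8.61 and 8.50 (difference -0.41, SE 0.10, adjusted p = 0.0213). APAF1 was not called without NPAT replicate 2 (0.50, adjusted p = 0.115) or control replicate 1 (0.54, adjusted p = 0.11), and BCL2L11 and BID were not called once any 1 of the 4 arrays was left out (adjusted p up to 0.203 and 0.156). BCL2L11 was not called after median centring either (0.44, adjusted p = 0.0582). Of 36 listed targets of p53 only 7 had a symbol, and the others could not be read here. APAF1 was the 1 called gene among these 7, of which 6 were not called and the median was -0.06.

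Matrix and adhesion genes included 3 of 14 higher and 0 lower, with a median of 0.04, and with 1 array left out 1 or 2 were higher. Among all genes with a symbol, 6.06% were called higher and 5.58% lower. COL6A3, a chain of collagen VI, read 7.13 and 7.36 against 7.99 and 8.27 (difference 0.88, SE 0.11, adjusted p = 5.33e-04). CTGF (CCN2), a secreted matrix regulator, read 11.52 and 11.47 against 11.84 and 11.76 (difference 0.31, SE 0.09, adjusted p = 0.0442). COL6A3 remained called whichever array was left out. CTGF was not called once any 1 of the 4 was left out (adjusted p up to 0.212) or after median centring (0.26, adjusted p = 0.0774).

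For the lists that follow, 3.84% of all genes were called higher and 4.29% lower. Among genes with a symbol these shares were 6.06% and 5.58%. Of 7 genes of TGF-beta and BMP signalling with a symbol, 2 were higher and 0 lower, with a median of 0.20. The ligand BMP6 read 6.30 and 6.32 against 7.21 and 7.12 (difference 0.85, SE 0.10, adjusted p = 2.03e-04). SMAD7, the inhibitory SMAD, read 5.70 and 5.66 against 5.96 and 6.20 (difference 0.40, SE 0.11, adjusted p = 0.0466) and was called only without NPAT replicate 1 among the 4 sets with 1 array left out, with adjusted p up to 0.319 otherwise, and not after median centring (adjusted p = 0.079). Of 7 genes of cholesterol synthesis, 2 were lower and 0 higher, with a median of -0.25. DHCR7, which carries out the final reduction to cholesterol, read 9.54 and 9.56 against 9.12 and 9.01 (difference -0.48, SE 0.08, adjusted p = 0.00321). FDFT1 (squalene synthase) read 10.79 and 10.84 against 10.41 and 10.52 (difference -0.35, SE 0.08, adjusted p = 0.0216). DHCR7 was called whichever array was left out, while FDFT1 was not called once any 1 was left out (adjusted p up to 0.138) or after cyclic loess normalization (adjusted p = 0.06). Of 9 genes of the ATF4 and unfolded protein response, ASNS (asparagine synthetase) alone was called, at 8.63 and 8.51 against 9.06 and 8.94 (difference 0.43, SE 0.11, adjusted p = 0.0261), a call lost once any 1 of the arrays was left out (adjusted p up to 0.15).

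Further lists held no call. None of 4 complement genes was called. C3, the central complement component, read 5.66 and 5.99 against 4.42 and 5.29 (difference -0.97, SE 0.29, adjusted p = 0.0566), with the NPAT siRNA duplicates far apart, and it was called lower without NPAT replicate 2 (-1.41, adjusted p = 0.0297) and after median centring (-1.02, adjusted p = 0.0418). CD59, a complement inhibitor, differed by -0.19 (adjusted p = 0.422). None of 4 hypoxia-responsive genes was called, with LDHA at -0.15 and P4HA2 at -0.19. The 1 interferon-stimulated gene with a symbol, STAT2, differed by 0.14 and the 1 ribosomal protein gene, RPLP2, by -0.06, and neither was called.

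The same siRNA was then compared between the cell lines, to ask which responses of U2OS cells differed from those of RPE1 cells. The difference of the 2 effects was called for 764 genes (3.46%), of which it was higher in U2OS for 412 (1.87%) and lower for 352 (1.59%). After each array was centred on its median the balance was 285 to 486. Among the 12 largest rises in U2OS cells, 8 had a called difference, and 4 were called higher in RPE1 cells too (there 5.04% of all genes were called, 2.37% higher and 2.67% lower). Among the 12 largest falls, 5 had a called difference, and 2 were called lower in RPE1 cells. Both sets of 12 were picked by their U2OS values, which also enter the difference, so called differences are favoured among them. The 764 moved to 317 and 281 without U2OS NPAT replicate 1 or 2, to 205 and 361 without U2OS control replicate 1 or 2, and to 153 and 369 without RPE1 NPAT replicate 1 or 2. Without RPE1 control replicate 1 the count rose, and without RPE1 control replicate 2 it fell. A fit of the 8 arrays compared alone gave 455.

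SNAI1 moved in opposite directions. In RPE1 cells it read 8.32 and 7.97 under control siRNA and 7.14 and 7.47 under NPAT siRNA, a fall of -0.84 (SE 0.13, adjusted p = 0.0035), against the rise of 1.47 in U2OS cells. The difference between the lines was 2.31 (SE 0.19, adjusted p = 5.33e-05). ZNF280A was at the low end of the scale in RPE1 cells, at 3.85 and 3.69 against 3.60 and 3.41, and its effects differed by 1.99 (SE 0.22, adjusted p = 5.42e-04). BMP6 rose in U2OS cells and fell in RPE1 cells, from 6.34 and 6.47 to 5.88 and 6.10 (-0.41, adjusted p = 0.0291), a difference of 1.27 (SE 0.14, adjusted p = 4.37e-04). These 3 differences were called whichever of the 8 arrays was left out.

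DKK1 started from a much higher level in RPE1 cells, 9.91 and 9.79, and reached 10.33 and 10.19, a rise of 0.41 (adjusted p = 0.0346) against 1.81 in U2OS cells (difference 1.40, SE 0.14, adjusted p = 3.39e-04). RHOB read 8.33 and 8.50 against 8.62 and 8.66 in RPE1 cells and differed by 0.98 between the lines (SE 0.15, adjusted p = 0.00532). The Notch ligand DLL4 (difference 1.19, adjusted p = 0.0329), HEY1 (1.07, adjusted p = 0.017), NKD1 (1.30, adjusted p = 0.0122) and CA2 (1.23, adjusted p = 0.0341) also responded more strongly in U2OS cells. In RPE1 control cells CA2 (3.30 and 3.54) and DLL4 (3.73 and 3.72) lay near the low end of the scale. The differences of DLL4, HEY1, NKD1 and CA2 lost their calls when single arrays were left out. DLL4 lost it whichever of the 8 arrays was left out (adjusted p up to 0.118), CA2 without 6 of them (up to 0.134), HEY1 without 4 (up to 0.0812) and NKD1 without 2 (up to 0.0685). The DLL4 difference was not called after cyclic loess normalization either (1.09, adjusted p = 0.0601), nor was that of CA2 (1.14, adjusted p = 0.0533).

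Other genes rose in both lines. CYP11A1 rose in RPE1 cells by 0.97, from 4.38 and 4.29 to 5.30 and 5.30 (adjusted p = 2.98e-04), and PGF rose by 0.64 (adjusted p = 0.00937). Their effects did not differ between the lines at this threshold, with differences of 0.14 (SE 0.15) and 0.54 (SE 0.17). IL8 fell in RPE1 cells by 0.76 (SE 0.18, adjusted p = 0.0301), and the difference of -0.89 from U2OS cells was not called (SE 0.25, adjusted p = 0.0731). BIRC3 read 5.33 and 5.57 against 5.28 and 5.01 in RPE1 cells and its effect differed by -1.16 (SE 0.22, adjusted p = 0.0172), a call lost without RPE1 NPAT replicate 1 (-1.02, adjusted p = 0.082), U2OS control replicate 1 (-1.13, adjusted p = 0.069) or U2OS NPAT replicate 1 (-0.98, adjusted p = 0.0644).

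The adhesion molecule MCAM rose in RPE1 cells from 4.92 and 4.95 to 7.09 and 7.24 (2.23, adjusted p = 8.24e-08) and in U2OS cells from 9.43 and 9.48 to 9.89 and 9.93 (0.45, adjusted p = 0.0161), so the effects differed by -1.78 (SE 0.14). The rise in U2OS cells was not called once any 1 of its 4 arrays was left out (adjusted p up to 0.122), while the difference was called in each case. H1F0 rose in RPE1 cells from 6.60 and 6.59 to 7.78 and 8.08 (1.34, adjusted p = 5.44e-04), which differed from U2OS cells by -1.60 (SE 0.22, adjusted p = 0.00265). FST, an inhibitor of activins, rose by 1.40 in RPE1 cells (adjusted p = 1.01e-05) and differed by 0.20 in U2OS cells (adjusted p = 0.282), a difference of -1.20 between the lines. CYP1B1, a cytochrome of xenobiotic and estrogen metabolism, fell in RPE1 cells from 9.82 and 10.07 to 8.03 and 8.27 and lay at 3.66 and 3.80 in U2OS control cells, near the low end of the scale.

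**Figure D4:**
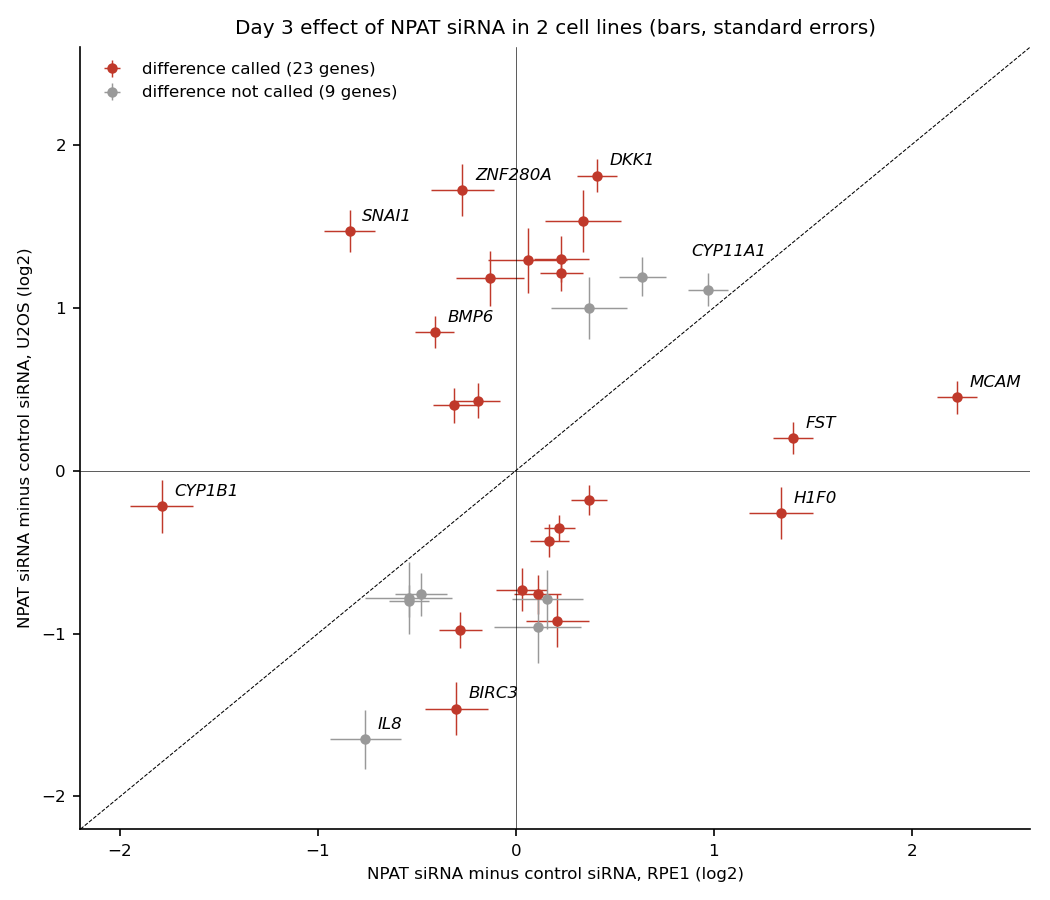
Effect of NPAT siRNA on day 3 in RPE1 cells (x axis, log2) and in U2OS cells (y axis, log2) for the genes with a called difference between the lines and 22 of the largest changes in U2OS cells, with bars of 1 standard error (red where the difference was called, grey where not); the dashed line marks equal effects. SNAI1 lies at 1.47 in U2OS and -0.84 in RPE1 cells, MCAM, FST and H1F0 lie far to the right, and CYP11A1 lies near the line.

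Over all genes called in U2OS cells, the RPE1 arrays showed small shifts in the same direction. In RPE1 cells 2.37% of all genes were called higher and 2.67% lower, with a median of -0.03. Of the 847 genes called higher in U2OS cells, 96 were called higher and 18 lower in RPE1 cells (11.3% and 2.13%), with a median of 0.05. Of the 947 called lower, 104 were called lower and 14 higher (11% and 1.48%), with a median of -0.11. Of the 85 genes that rose by at least 1 in U2OS cells, 17 were called higher in RPE1 cells and 1 lower (20% and 1.18%). Of the 33 that fell by at least 1, 5 were called lower and 1 higher (15.2% and 3.03%).

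The effect of NPAT siRNA was next set against that of the siRNAs to its partners in the same line. The 3 effects share the 2 control arrays, so they are given side by side, and differences were tested between the siRNA groups themselves. With CASP8AP2 siRNA, 18.9% of all genes were called against control (7.91% higher and 11% lower), and with HINFP siRNA 9.43% (4.59% higher and 4.84% lower). Of the 12 largest rises with NPAT siRNA, 11 were called higher with CASP8AP2 siRNA and 10 with HINFP siRNA. Of the 12 largest falls, 9 and 10 were called lower. Both sets of 12 were picked by values against these same control arrays, which favours calls in the same direction among them. NPAT siRNA differed from CASP8AP2 siRNA for 773 genes (3.5%), 425 higher (1.93%) and 348 lower (1.58%), and from HINFP siRNA for 892 genes (4.04%), 440 higher (1.99%) and 452 lower (2.05%). These counts rest on the spread shared over all 16 arrays. A fit of the 4 arrays compared alone gave 88 and 180. Leaving out CASP8AP2 replicate 2 raised the first count, while leaving out any other array of the groups compared lowered the counts. The first count became 319 and 238 without NPAT replicate 1 or 2 and 200 without CASP8AP2 replicate 1, and the second 354 and 318 without NPAT replicate 1 or 2 and 504 and 322 without HINFP replicate 1 or 2.

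**Figure D5:**
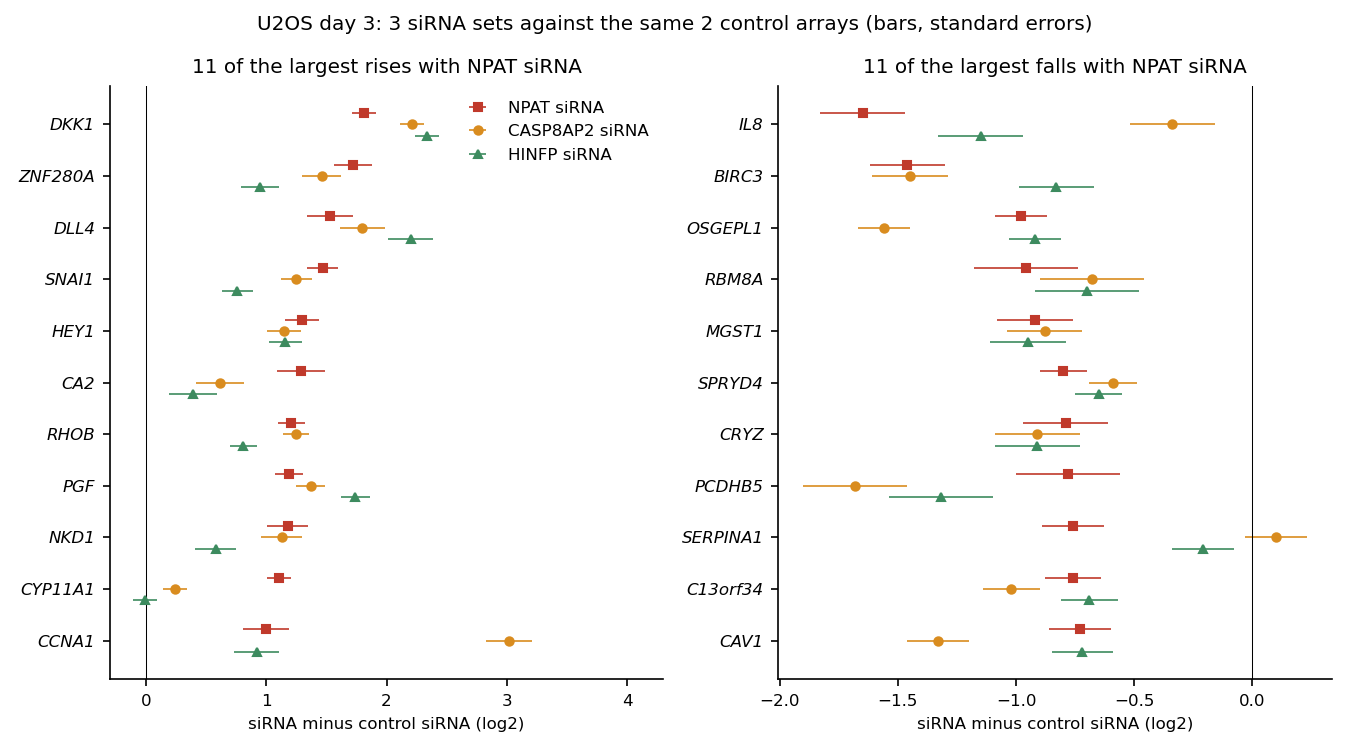
Differences from control siRNA (x axis, log2) in U2OS cells on day 3 for 11 of the 12 largest rises (left) and 11 of the 12 largest falls (right) with NPAT siRNA, under NPAT (squares), CASP8AP2 (circles) and HINFP (triangles) siRNA, with bars of 1 standard error; all 3 use the same 2 control arrays. CYP11A1 lies at 1.11 under NPAT siRNA and near 0 under the other siRNAs, IL8 and SERPINA1 lie to the left under NPAT siRNA and nearer 0 under CASP8AP2 siRNA, and CCNA1 lies far to the right under CASP8AP2 siRNA.

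CYP11A1 stood apart under NPAT siRNA on day 3. The contrast is limited to that day, as CYP11A1 was higher by 0.99 (SE 0.11) with CASP8AP2 siRNA on day 2. On day 3 it read 4.89 and 5.09 with CASP8AP2 siRNA and 4.59 and 4.88 with HINFP siRNA, near its control values. With NPAT siRNA it read 5.84 and 5.87. NPAT siRNA exceeded CASP8AP2 siRNA by 0.87 (SE 0.10, adjusted p = 6.91e-04) and HINFP siRNA by 1.12 (SE 0.10, adjusted p = 7.99e-05). IL8 and SERPINA1 were lower with NPAT siRNA than with CASP8AP2 siRNA. IL8 read 9.93 and 9.53 with CASP8AP2 siRNA, and the difference of NPAT from CASP8AP2 siRNA was -1.31 (SE 0.18, adjusted p = 0.00151). It read 8.82 and 9.02 with HINFP siRNA, from which NPAT siRNA did not differ beyond the threshold (-0.50, SE 0.18, adjusted p = 0.165). SERPINA1 read 9.01 and 9.07 with CASP8AP2 siRNA and 8.84 and 8.62 with HINFP siRNA, and NPAT siRNA was lower than both, by -0.87 (SE 0.13, adjusted p = 0.00267) and -0.56 (SE 0.13, adjusted p = 0.029).

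Other genes moved further with CASP8AP2 siRNA. CCNA1 reached 6.94 and 7.39 with CASP8AP2 siRNA, against 5.33 and 4.95 with NPAT siRNA (difference -2.03, SE 0.19, adjusted p = 7.21e-05). JAG1 reached 8.89 and 8.81 (difference -0.69, SE 0.12, adjusted p = 0.00846), while the values of DLL4 (difference -0.27, SE 0.19, adjusted p = 0.535) and HEY1 (0.15, SE 0.14, adjusted p = 0.672) did not differ beyond the threshold. IL13RA2, a decoy receptor for interleukins, and SPINK1, a trypsin inhibitor, were higher with CASP8AP2 siRNA (differences -1.71, SE 0.15, and -1.55, SE 0.13). NPAT siRNA left both uncalled against control (-0.41, adjusted p = 0.107, and -0.26, adjusted p = 0.286), although IL13RA2 was called lower without control replicate 2 (-0.63, adjusted p = 0.041). TNNT2, the cardiac form of troponin T, was lower with CASP8AP2 siRNA, at 5.33 and 5.46 against 6.87 and 6.71 (difference 1.39, SE 0.20, adjusted p = 0.00198). CAV1 fell to 10.57 and 11.04 and OSGEPL1 to 5.44 and 5.45 with CASP8AP2 siRNA, lower than with NPAT siRNA by 0.60 (adjusted p = 0.0203) and 0.58 (adjusted p = 0.0123). CASP8AP2 itself differed by 1.18 (SE 0.11, adjusted p = 7e-05), as its own siRNA lowered it.

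Against HINFP siRNA, the linker histone gene H1F0 showed the largest excess among genes with a symbol. It read 10.22 and 9.78 with HINFP siRNA and 11.44 and 11.40 with NPAT siRNA (difference 1.42, SE 0.16, adjusted p = 3.08e-04). HINFP differed by 1.36 (SE 0.15) and NPAT by -1.47 (SE 0.11), as each was the target of 1 of the sets. CD22, a lectin of B cells, read 9.35 and 9.70 with HINFP siRNA against 8.09 and 8.02 (difference -1.47, SE 0.17, adjusted p = 5.2e-04). TGFA, a ligand of the EGF receptor, read 7.76 and 8.04 against 6.51 and 7.08 (difference -1.11, SE 0.21, adjusted p = 0.00994), a call lost without HINFP replicate 2 (-0.96, adjusted p = 0.097) or NPAT replicate 1 (-0.82, adjusted p = 0.101). DKK1 (7.00 and 7.13, difference -0.52, adjusted p = 0.0115) and PGF (6.97 and 7.21, difference -0.55, adjusted p = 0.0215) were higher with HINFP siRNA. SNAI1 (0.70, adjusted p = 0.00985) and ZNF280A (0.78, adjusted p = 0.0158) were higher with NPAT siRNA.

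The genes called with NPAT siRNA were last read on U2OS arrays of an earlier time, which share no array with the day 3 comparison. These were 12 arrays of control and CASP8AP2 siRNA on days 1 and 2, with 3 arrays per group, normalized apart from the day 3 arrays. On day 1 after CASP8AP2 siRNA, 5.87% of all genes were called, 2.86% higher and 3.01% lower. Of the 847 genes called higher with NPAT siRNA on day 3, 152 were called higher and 10 lower on that day (17.9% and 1.18%), with a median of 0.11. Of the 947 genes called lower, 121 were lower and 13 higher (12.8% and 1.37%), with a median of -0.05. On day 2, 24.9% of all genes were called, 11.8% higher and 13.1% lower, and of the 847 genes 540 were higher and 20 lower (63.8% and 2.36%), with a median of 0.38. Of the 947, 453 were lower and 56 higher on day 2 (47.8% and 5.91%), with a median of -0.22. Of the 85 genes that rose by at least 1 with NPAT siRNA, 34 were called higher and 0 lower on day 1, with a median of 0.31, and 74 higher and 0 lower on day 2, with a median of 1.03. Of the 33 that fell by at least 1, 4 were called lower and 2 higher on day 1, with a median of 0, and 14 lower and 6 higher on day 2 (42.4% and 18.2%), with a median of -0.30.

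Among the 12 largest rises, 11 were called higher on day 2 after CASP8AP2 siRNA, led by DKK1 (2.34, SE 0.11) and CCNA1 (2.13, SE 0.14). On day 1, 5 were, and DKK1 was already 0.62 higher (SE 0.11, adjusted p = 0.00107). CA2 was the exception on day 2, at -0.01 (SE 0.13, adjusted p = 0.98). Among the 12 largest falls, 6 were called lower and 2 higher on day 2. The 2 were IL8, which was higher by 0.46 on day 1 (SE 0.12, adjusted p = 0.0257) and by 0.44 on day 2 (SE 0.12, adjusted p = 0.00857), and SERPINA1, which was higher by 0.45 on day 2 (SE 0.15, adjusted p = 0.03). CYP11A1 was higher by 0.99 on day 2 (SE 0.11, adjusted p = 1.05e-06), whereas on day 3 it read 4.89 and 5.09 with CASP8AP2 siRNA, near its control values of 4.76 and 4.73.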

How the data were processed

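Total RNA of siRNA-treated cells was hybridized to Affymetrix human whole-transcript arrays. The deposited values are on the log2 scale; per the labels the authors' processing used RMA, and per the methods the affy package with a custom probe grouping of 1 probe set per Ensembl gene, whose version and genome build are not given in the sources used here. Arrays have no read depth, and their number, 2 per group, limits the precision. Columns were matched to samples by title, and 0 columns were left unassigned.

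Effects were fitted with limma 3.58.1 in R 4.3.3 on the 16 day 3 arrays with 8 group means (8 residual degrees of freedom), with Benjamini-Hochberg adjustment over 22069 genes and a threshold of 0.05. Days 1 and 2 were fitted apart. The script was tested on simulated data. Symbols were taken from the study's own pairing of Ensembl identifiers with names. Promoter sequences are those of RefSeq (GRCh38.p14). Columns of the authors' own fold changes were not used.

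Named genes were the siRNA targets, the 12 largest called rises and the 12 largest called falls with a symbol and without overlap between groups, up to 4 called members per list (or 2 where none was called), and the 3 largest differences each way per contrast. Values of IL1A, NCAM1, COL1A2, MSX2, PCDHB1, CCNA2 and RAD17 were added after they were seen. So were those of the uncalled Notch, Wnt, NF-kB and histone locus body members. Of the genes this rule takes, 4 are counted but not reported here. The genes and lists were chosen with earlier results of these data known. Alternatives were other scalings, filters, sets of arrays, a mean-variance trend and leaving out each array in turn.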

Additional observations from a re-analysis of the deposited data

Results flagged for a closer look

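The NPAT siRNA effect in U2OS cells differed from that in RPE1 cells, by a test of the difference itself (limma, adjusted p under 0.05), for 764 genes, of which 23 are among the genes named. Values are U2OS minus RPE1 on the log2 scale. The effect was higher in U2OS cells for SNAI1 (2.31), ZNF280A (1.99), CYP1B1 (1.57), DKK1 (1.40), NKD1 (1.30), BMP6 (1.27), CA2 (1.23), DLL4 (1.19), HEY1 (1.07), RHOB (0.98), SMAD7 (0.71) and ASNS (0.62). It was lower in U2OS cells for MCAM (-1.78), H1F0 (-1.60), FST (-1.20), BIRC3 (-1.16), MGST1 (-1.13), C13orf34 (-0.87), CAV1 (-0.75), OSGEPL1 (-0.70), NBN (-0.60), FDFT1 (-0.57) and CDC6 (-0.55). For CYP1B1, MCAM, FST and H1F0 the change lay mostly in RPE1 cells. CDC6 was likewise called higher in RPE1 cells (0.37) and not called in U2OS cells (-0.18). Of the 23, 9 were called whichever of the 8 arrays was left out, and 3 (CAV1, CDC6 and DLL4) were called in none of these 8 fits.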

How the results depend on the processing

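With 2 arrays per group, the counts depended on which arrays entered the fit. The 1794 calls under NPAT siRNA became 1475 with only the 4 arrays compared and 1163 with the 8 U2OS arrays of day 3. They became 3156 with all 40 arrays and 118 at an absolute log2 difference of at least 1. Leaving out 1 array at a time gave 510 to 927. The difference from RPE1 cells (764) became 455 with the arrays compared, 2131 with all 40 arrays and 170 at a difference of at least 1, and 153 to 874 with 1 array left out. NPAT against CASP8AP2 siRNA (773) became 88, 350 (8 U2OS arrays), 1811 and 86, and 200 to 1096 with 1 array left out. NPAT against HINFP siRNA (892) became 180, 453, 1825 and 78, and 318 to 504 with 1 array left out. A size threshold calls fewer genes by its construction. Fewer arrays called fewer genes in most of these fits but not in all. The count for the difference from RPE1 cells rose without RPE1 control replicate 1. That for NPAT against CASP8AP2 siRNA rose without CASP8AP2 replicate 2. The other alternatives (scaling, a filter on low values, a mean-variance trend) left these counts within 1.5 times. The NPAT transcript itself kept its fall and its call under every alternative, from -1.47 to -1.71 with 1 array left out.

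Replicate numbers are shared between groups but nothing in the labels pairs them. With the replicate block within each cell line the counts were 1739, 655, 756 and 833, and NPAT stayed at -1.59. Deviations of equally numbered U2OS control and NPAT siRNA arrays correlated at 0.141.

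For the genes named, 645 of the values under an alternative kept direction and side of the threshold, 164 lost the call and 5 gained it. The 6 that changed sign were of uncalled genes close to 0: CASP8AP2 (-0.05 after median centring, and -0.03 to 0.04 with 1 array left out), RPLP2 (0.03 after cyclic loess, and -0.16 to 0.05) and TNNT2 (-0.21 to 0.40); the cause was not tested. Canonical histone genes called lower could not be counted under any setting, because none was tied to an identifier.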
